A study of Mus musculus with 8 samples.

Results

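Epgn and 6 further genes of the epidermal growth factor (EGF) receptor system were followed in mouse tongue, 7 of the 19857 genes in the count table. The genes were listed by name: the ligands Epgn, Areg and Hbegf, the receptors Egfr, Erbb2 and Erbb3, and the feedback inhibitor Errfi1. The list was selected on the fold change of Epgn, which had the largest decrease in an earlier comparison of these same libraries. Its difference between the genotypes, and that of its 6 relatives in the same comparison, is therefore given as a description without a p-value. RNA was measured in 8 bulk libraries from the middle part of the tongue of female mice aged 12 months, 4 from wild type (WT) mice and 4 from mice heterozygous for A17, a changed form of PABPN1 (A17/+). The A17/+ mouse is a model of oculopharyngeal muscular dystrophy, an inherited weakness of the eyelid and throat muscles. PABPN1 is the nuclear protein that binds poly(A) tails. How the allele was made is not given in the sources used here.

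The EGF receptor is a tyrosine kinase of the cell surface. Its ligands are made as membrane-bound precursors, and proteases of the ADAM family release them. A bound receptor pairs with itself or with another member of the family and starts the RAS, ERK and PI3 kinase pathways, which drive growth and renewal of stratified epithelia such as the covering of the tongue. ERBB2 has no known ligand of its own and acts as a partner, and ERBB3 binds neuregulins and has a weak kinase. ERRFI1, also called MIG6, binds the active receptor and blocks it. Skeletal muscle, the bulk of the tongue, lies below that epithelium.

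The libraries were shallow and not uniform. Each count is a unique molecular identifier (UMI), which marks 1 captured RNA molecule near its 3′ end, and totals ran from 205696 UMIs in WT 4 to 485326 in A17/+ 1. Levels are given as CPM, the usual scaling of counts to a common library total, after TMM adjustment of those totals. The markers of skeletal muscle and tongue epithelium were both present: all 14 muscle markers passed the filter on low counts, and 27 of 28 epithelial markers were detected in every library. Across genes, WT 1 correlated most with A17/+ 1 and A17/+ 1 most with WT 1 (Pearson r = 0.927 of log2 CPM), so each of these libraries lay nearer to the other genotype than to its own. WT 1 also held 931 UMIs of 12 lingual salivary gland markers, against 1 to 6 in the other WT libraries. Values without these libraries are given where they bear on a result.

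Promoters are printed for Epgn, Areg and Egfr, to set side by side the ligand the list was chosen for, a ligand of the same gene cluster that was almost absent, and their common receptor. The sequences are those of RefSeq on GRCm38.p6, the assembly that mm10 names, and run from 250 bases before to 50 bases after the annotated start, on the plus strand in each case. Their positions are chr5:91027267-91027566 for Epgn, chr5:91139349-91139648 for Areg and chr11:16751953-16752252 for Egfr. Capitals mark matches, on either strand, to TATAAA (the TATA box), GGGCGG (the core of the Sp1 motif) and TGANTCA (the AP-1 motif).
Epgn: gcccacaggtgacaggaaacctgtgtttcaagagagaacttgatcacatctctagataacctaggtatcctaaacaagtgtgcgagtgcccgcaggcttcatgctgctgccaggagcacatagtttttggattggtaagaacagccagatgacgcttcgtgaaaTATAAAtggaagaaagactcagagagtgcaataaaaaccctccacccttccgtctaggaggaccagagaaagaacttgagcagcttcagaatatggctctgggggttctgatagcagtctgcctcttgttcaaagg
Areg: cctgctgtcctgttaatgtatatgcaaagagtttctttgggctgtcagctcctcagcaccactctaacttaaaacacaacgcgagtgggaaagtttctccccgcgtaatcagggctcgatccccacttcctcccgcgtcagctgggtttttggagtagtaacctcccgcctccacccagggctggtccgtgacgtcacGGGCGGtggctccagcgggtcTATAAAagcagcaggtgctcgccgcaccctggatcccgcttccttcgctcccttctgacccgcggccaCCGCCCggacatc
Egfr: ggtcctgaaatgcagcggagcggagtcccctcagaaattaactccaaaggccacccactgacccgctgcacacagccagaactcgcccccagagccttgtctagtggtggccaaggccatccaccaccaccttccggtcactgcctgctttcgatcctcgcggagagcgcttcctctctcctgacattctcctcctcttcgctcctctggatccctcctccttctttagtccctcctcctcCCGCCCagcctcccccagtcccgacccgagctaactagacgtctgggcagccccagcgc
The Epgn window held 1 TATAAA, which started 33 bases before the GENCODE start of the gene, and no GGGCGG. The RefSeq start that sets this window lies downstream of the GENCODE start, at 91027464, so the motif is farther from the RefSeq start. For Areg and Egfr the RefSeq and GENCODE starts are the same. Areg held 1 TATAAA and 2 GGGCGG, Egfr held 1 GGGCGG and no TATAAA, and TGANTCA was found in none of the 3. Over 32851 RefSeq promoter windows of this length, 13.6% held TATAAA, 35.7% GGGCGG and 7.81% TGANTCA. The Epgn window had 5 CpG dinucleotides and a GC content of 47.3%, against 21 and 59.3% for Areg and 15 and 62.3% for Egfr. The medians over all windows were 7 and 52.7%. These are matches of letters, and binding of a factor was not measured.

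Epgn (ENSMUSG00000035020, mm10 chromosome 5, 91027464 to 91035215, plus strand) encodes epigen, an EGF receptor ligand that stimulates epithelial growth. It had 12, 20, 13 and 6 UMIs in WT 1 to 4, whereas A17/+ 1 to 4 had 4, 3, 4 and 5. The corresponding levels were 26.7, 64.6, 44.0 and 32.5 CPM in WT, and 8.92, 8.47, 11.3 and 14.3 CPM in A17/+. The 4 A17/+ libraries lay together below every WT library, and the WT libraries were spread over a wider range with WT 2 highest. WT averaged 42.0 ± 16.7 CPM, and A17/+ averaged 10.7 ± 2.65 CPM (SD, n = 4 each). The fitted log2 difference, A17/+ minus WT, was −1.94 ± 0.42 (SE), with a 95% interval from −2.82 to −1.05, which is a fold of 0.141 to 0.482. In bulk RNA such as this, fewer cells of a type and less RNA per cell cannot be told apart.

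Counting error was a large part of the uncertainty of Epgn. The 3 UMIs of A17/+ 2 have an exact 95% Poisson interval of 0.619 to 8.77 UMIs, and the 20 UMIs of WT 2 one of 12.2 to 30.9. Over the genotypes, 51 UMIs of 1282497 in WT (interval 38.0 to 67.1) stood against 16 of 1721314 in A17/+ (9.15 to 25.98). These intervals cover counting error only. Epgn passed the filter on low counts, which asked for 24.6 CPM without TMM in 4 libraries, through WT alone: it reached that level in 4 WT and 0 A17/+ libraries. A gene that passes in this way has to be higher in WT, and 20 of the tested genes did. The log2 difference was −1.68 without WT 2 and −2.18 without WT 1, and −2.07 without WT 1 and A17/+ 1 together.

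**Figure D1:**
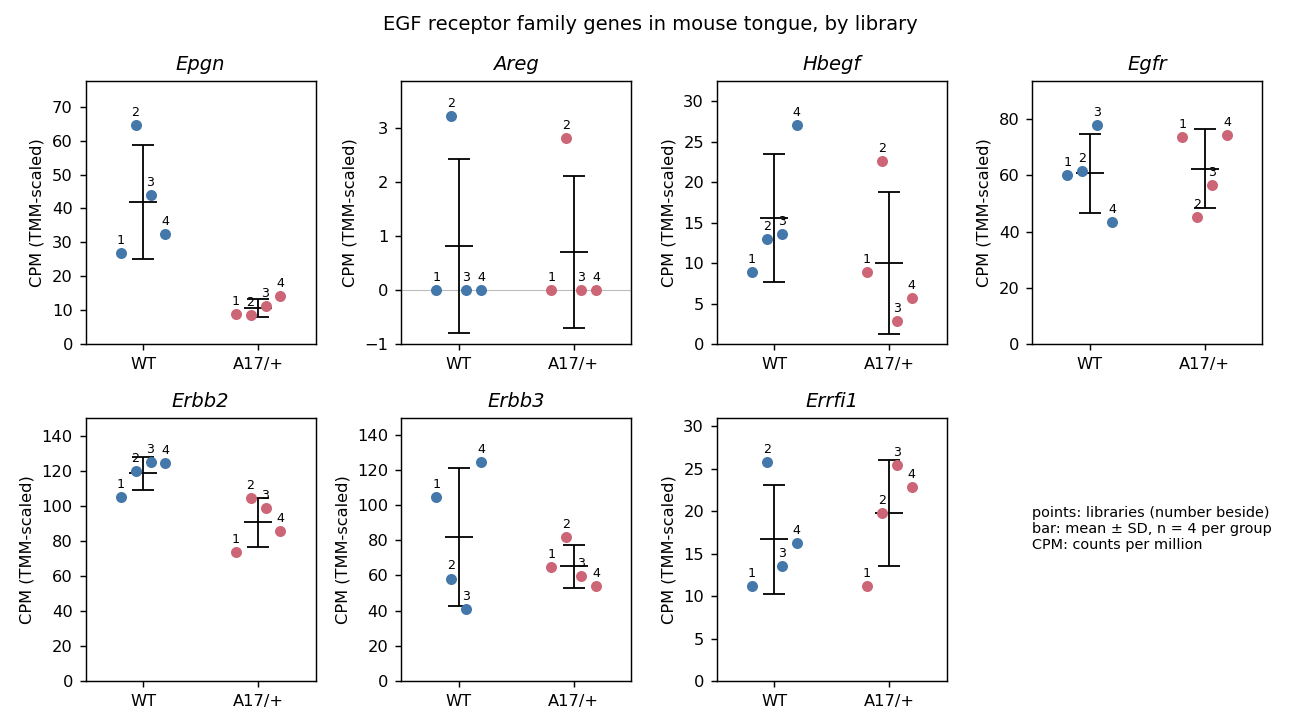
Level of each gene in CPM (TMM-scaled, vertical axis) in WT and A17/+ tongue, with 1 point per library, its replicate number beside it, and bars for mean ± SD of 4 libraries. Epgn is the gene whose groups lie far apart, from 8.47 to 14.3 CPM in A17/+ and from 26.7 to 64.6 CPM in WT, whereas the Egfr groups cover nearly the same range.

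The other ligands on the list were scarce. Areg (ENSMUSG00000029378, chromosome 5, 91139599 to 91148432, plus strand) encodes amphiregulin, a ligand of epithelia and of tissue repair. It had 1 UMI in WT 2 and 1 in A17/+ 2 and none in the other 6 libraries, so that no fold is given. Hbegf (ENSMUSG00000024486, chromosome 18) encodes heparin-binding EGF, a ligand of several cell types. It had 4, 4, 4 and 5 UMIs in WT 1 to 4, against 4, 8, 1 and 2 in A17/+ 1 to 4. WT averaged 15.6 ± 7.92 CPM against 10.01 ± 8.75 CPM for A17/+ (SD, n = 4), and the groups overlapped. The fit without a filter gave a log2 difference of −0.55 with a 95% interval from −1.76 to 0.65, so that a fold anywhere from 0.295 to 1.57 was not separable at this depth.

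Of the receptors, Egfr (ENSMUSG00000020122, chromosome 11, 16752203 to 16918158, plus strand), the receptor of epigen, was at nearly the same mean level in both genotypes. Its levels were 60.2, 61.4, 77.8 and 43.3 CPM in WT 1 to 4, against 73.6, 45.2, 56.5 and 74.1 CPM in A17/+ 1 to 4. The lowest and the highest library were both WT, and the groups overlapped over most of their range. Means were 60.7 ± 14.1 and 62.3 ± 14.1 CPM (SD, n = 4), and the log2 difference was 0.02 ± 0.26 (SE) with a 95% interval from −0.54 to 0.58. Folds from 0.688 to 1.496 thus lay inside the interval. The sign of this difference had no stable direction, being below 0 in 11 of 19 alternative settings, library totals in place of TMM among them (−0.10). Egfros, an antisense gene within Egfr, had 6 UMIs in all, and since the strand setting of the counting is not given, reads of the 2 genes cannot be told apart.

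Erbb2 (ENSMUSG00000062312, chromosome 11, 98412470 to 98437716, plus strand), the partner receptor, was the other tested member whose groups did not overlap. Its levels were 105, 120, 125 and 125 CPM in WT 1 to 4, against 73.6, 104, 98.9 and 85.5 CPM in A17/+ 1 to 4. WT 1 at 104.7 CPM and A17/+ 2 at 104.5 CPM almost touched, and the remaining libraries were farther apart. The WT mean was 119 ± 9.54 CPM and the A17/+ mean 90.6 ± 13.9 CPM (SD, n = 4). The log2 difference was −0.38 ± 0.21 (SE), and its 95% interval from −0.83 to 0.07 includes 0. The difference was below 0 in 19 of 19 settings, from −0.50 to −0.29. These settings refit the same libraries, whose groups did not overlap, so the shared sign adds no support. The 3′ end of Erbb2 overlaps that of Mien1, on the opposite strand, by 9 bases. Mien1 had 0, 0, 1 and 0 UMIs in WT 1 to 4, against 0, 8, 7 and 4 in A17/+ 1 to 4, and reads of both genes in that stretch cannot be told apart.

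Erbb3 (ENSMUSG00000018166, chromosome 10, 128567523 to 128589652, minus strand), a neuregulin receptor used by Schwann cells and epithelia, varied most within WT. Its levels were 105, 58.2, 40.6 and 125 CPM in WT 1 to 4, against 64.7, 81.9, 59.3 and 54.2 CPM in A17/+ 1 to 4. WT 1 and WT 4 were above every A17/+ library, whereas WT 3 was below every one and WT 2 lay among them. Means were 82.0 ± 39.2 and 65.0 ± 12.0 CPM (SD, n = 4), and the log2 difference was −0.31 ± 0.31 (SE) with a 95% interval from −0.97 to 0.35. It was −0.15 without WT 1 and −0.09 without WT 1 and A17/+ 1 together. Markers of Schwann cells and myelin, 13 genes, summed to 145 to 201 CPM in WT and to 268 to 356 CPM in A17/+, with 8 to 11 of them detected per WT library and 11 to 13 per A17/+ library. Detection of all genes also differed, from 11339 to 14164 per WT library against 14219 to 14437 per A17/+ library. Library totals were 205696 to 465014 UMIs in WT and 395061 to 485326 in A17/+, and the part of depth in marker detection was not tested. Of the 13 markers, 3 were tested, each without overlap between the groups, against 14.6% of all tested genes. Pmp22 had 20.3 CPM in WT against 66.3 CPM in A17/+ (edgeR adjusted p = 0.00623). Mbp had 35.6 against 60.7 CPM (adjusted p = 0.109), and Cdh19, in the other direction, 67.0 against 46.0 CPM (adjusted p = 0.186). Only Pmp22 was past the threshold of 0.05, against 8.94% of all tested genes. Sox10, a defining marker of Schwann cells, had 3 UMIs in WT and 1 in A17/+ in all. The part of these cells in the level of Erbb3 was not tested.

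Errfi1 (ENSMUSG00000028967, chromosome 4, 150853919 to 150868892, plus strand), the feedback inhibitor, which receptor activity is known to induce, had 5, 8, 4 and 3 UMIs in WT 1 to 4, against 5, 7, 9 and 8 in A17/+ 1 to 4. By CPM, WT 2 was the highest library and the library numbered 1 the lowest of each genotype, and the groups overlapped. WT averaged 16.7 ± 6.45 CPM and A17/+ 19.8 ± 6.21 CPM (SD, n = 4). The fit without a filter gave a log2 difference of 0.19 with a 95% interval from −0.81 to 1.18. An antisense transcript, 1700045H11Rik, overlaps the gene by 1031 bases and was absent from the count table, so it has no values here.

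**Figure D2:**
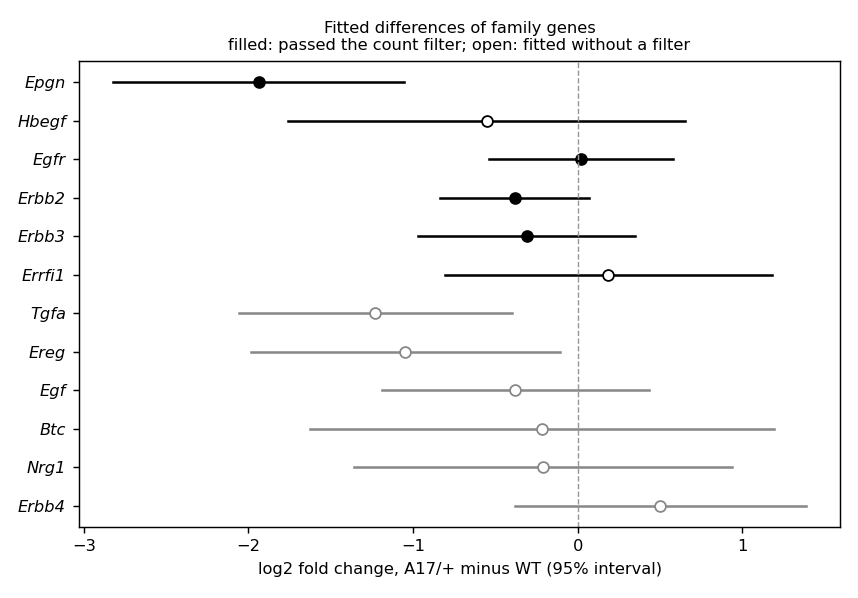
Fitted log2 fold change, A17/+ minus WT (horizontal axis), with its 95% interval for the listed genes (black) and for other ligands and receptors of the family with at least 10 UMIs in all (grey); open symbols were fitted without a filter. The interval of Epgn runs from −2.82 to −1.05, and that of Egfr from −0.54 to 0.58 around 0.

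Of the 7 genes, 4 passed the filter, and 3 (Areg, Hbegf and Errfi1) did not. In the edgeR fit across 5066 genes, with p-values adjusted over all of them and a threshold of 0.05, 1 of the 4 (Epgn) was lower and 0 were higher, and without WT 2 the count was 0. Over all tested genes 8.94% were past the threshold, 2.61% lower and 6.34% higher. This split depended on the scaling, with 321 genes higher and 132 lower by TMM against 279 and 289 with library totals. The groups did not overlap for 2 of the 4 (Epgn and Erbb2), against 14.6% of all tested genes (6.08% lower and 8.57% higher in A17/+). Since the list was drawn up from this comparison, nothing is read from these counts.

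As epigen is made by epithelia, its level was also set against that of the tongue epithelium. The 28 epithelial markers summed to 19646 to 23002 CPM in WT and to 13924 to 25690 CPM in A17/+, and the groups overlapped, with A17/+ 1 lowest and A17/+ 2 highest. This sum mixes abundant genes that moved in opposite directions, named after their values were seen. Mean CPM was lower in A17/+ for the adhesion gene Dsp (4966 against 2751) and the keratin Krt76 (2101 against 1276). It was higher for the keratins Krt4 (2782 against 3633) and Krt13 (2492 against 4008). The sum is therefore not a stable measure of the amount of epithelium. Per 10000 UMIs of these markers, WT 1 to 4 held 13.6, 28.1, 19.8 and 15.2 UMIs of Epgn, and A17/+ 1 to 4 held 6.40, 3.30, 5.89 and 7.23. The A17/+ libraries were again all below the WT libraries, and A17/+ 2, with the highest marker sum, was lowest. The means were 19.2 ± 6.49 and 5.71 ± 1.70 (SD, n = 4), a log2 ratio of −1.75. With the summed marker level as a covariate in the fit, the log2 difference of Epgn was −1.78. On the same scale the Erbb2 groups overlapped, at 55.0 ± 2.90 in WT and 47.1 ± 5.98 in A17/+.

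Of the 27 epithelial markers that were tested, 0 were higher and 7 lower past the threshold, against 6.34% and 2.61% of all tested genes. The 7 were the adhesion genes Dsp, Dsc3, Dsg3, Perp and Cdh1, the keratin Krt76 and the collagen Col17a1. The log2 difference was below 0 for 20 of the 27, with a median of −0.33 beside 0.01 for all tested genes. The ends of the range, named after their values were seen, were −1.12 for Lamb3, a laminin chain (edgeR adjusted p = 0.109), and 0.81 for Krt5, the basal keratin (adjusted p = 0.0942). The keratin Krt13, also named after its value was seen, just missed the threshold on the higher side (0.68, edgeR adjusted p = 0.0501). In the fit without a filter Krt5 (adjusted p = 0.00693) and Krt13 (0.00124) passed on the higher side and Lamb3 (0.0177) on the lower, while Dsg3 no longer did. The ratio and the covariate reuse the Epgn counts behind the choice of the list and are descriptions, and the part of the epithelium in the level of Epgn was not tested.

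Markers of other cells differed between the genotypes as well. Over all tested genes, 6.34% were higher and 2.61% lower past the edgeR threshold, with a median log2 difference of 0.01. Of 14 skeletal muscle markers 7 were higher and 0 lower past it, with a median log2 difference of 0.58, and their sums overlapped. Of 7 fibroblast markers 3 were higher and 0 lower past it. The fibroblast sum was 767 ± 109 CPM in WT against 1352 ± 287 CPM in A17/+ (SD, n = 4) without overlap. The sums of macrophage markers, 104 ± 18.1 against 165 ± 16.01 CPM, and of endothelial markers, 492 ± 20.7 against 537 ± 17.1 CPM, did not overlap either. The endothelial gap was narrow, from 515 CPM in WT to 522 CPM in A17/+. Library totals in place of TMM made the endothelial sums overlap. Only 2 of 8 macrophage and 5 of 7 endothelial markers were tested, and 0 of these had an edgeR p under 0.05, adjusted or not. The log2 difference was below 0 for 2 of the 5 endothelial ones. Of the untested ones, C1qa, C1qb, Emcn and Cldn5 were higher in the edgeR fit without a filter (unadjusted p under 0.05, adjusted p 0.0624 to 0.365). Ptprc was lower there (adjusted p = 0.594). The part of these other cells in the level of Epgn was not tested.

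**Figure D3:**
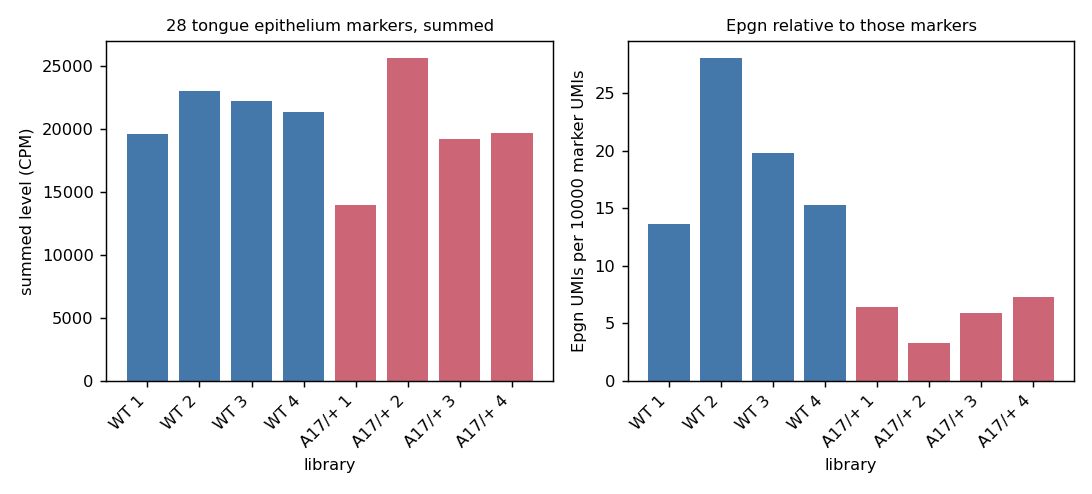
Left, summed level of 28 tongue epithelium markers in CPM for each library; right, Epgn UMIs per 10000 UMIs of those markers, with WT in blue and A17/+ in red. The marker sums of the genotypes overlap, whereas the ratio is at most 7.23 in A17/+ and at least 13.6 in WT.

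The rest of the ligands and receptors were too scarce for the filter: of 9 listed, 8 were in the table and 0 were tested. Tgfa, transforming growth factor alpha, another EGF receptor ligand of epithelia, had 17, 19, 8 and 5 UMIs in WT 1 to 4, against 10, 4, 5 and 7 in A17/+ 1 to 4. WT averaged 38.4 ± 16.2 CPM against 16.9 ± 5.08 CPM for A17/+ (SD, n = 4), and the groups did not overlap. WT 2 was highest, as it was for Epgn. In the edgeR fit without a filter its log2 difference was −1.23 ± 0.42 (SE), and its adjusted p over 19857 genes was 0.0740, which missed the threshold. Without A17/+ 1 the gene entered the filtered fit and was called lower, but it passed that filter through WT alone, so the call is not support.

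Ereg, the ligand epiregulin, rested on WT 2, with 6, 29, 2 and 1 UMIs in WT 1 to 4, against 7, 1, 9 and 6 in A17/+ 1 to 4. Its log2 difference of −1.05 ± 0.48 (SE) in the edgeR fit without a filter had an adjusted p of 0.277. Egf, the founding ligand, had 27, 3, 8 and 2 UMIs in WT and 18, 9, 4 and 6 in A17/+, and Erbb4, another neuregulin receptor, had 16, 3, 3 and 2 in WT and 20, 4, 7 and 11 in A17/+. Both were highest in the library numbered 1 of each genotype, which are the libraries that stood apart. Their adjusted p without a filter were 0.625 and 0.594 by edgeR. Btc, betacellulin, had 11 UMIs in WT and 12 in A17/+, Nrg1, the main neuregulin of nerve, 17 and 19, and the neuregulins Nrg2 and Nrg4 3 and 6, and 3 and 5.

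Of 13 genes that act on ligand release, 5 were tested, and 0 were higher or lower by edgeR (1 with an unadjusted p under 0.05). The median log2 difference was −0.19. Adam9, a protease of the ADAM family, had 256 ± 44.8 CPM in WT and 176 ± 52.5 CPM in A17/+ (log2 difference −0.54, adjusted p = 0.148). Adam10, a main ligand-releasing protease, had 21.7 ± 8.50 and 37.7 ± 8.21 CPM (0.73, adjusted p = 0.209). Of 25 negative regulators of receptor signalling, 12 were tested and 0 passed (2 with an unadjusted p under 0.05), with a median of 0.08. Cbl, the ubiquitin ligase that sends the receptor to degradation, had 91.6 ± 11.2 CPM in WT and 61.0 ± 10.5 CPM in A17/+ (−0.56, adjusted p = 0.148). Socs5, a further inhibitor of the receptor, had 103 ± 17.2 and 69.4 ± 10.5 CPM (−0.54, adjusted p = 0.152). Dusp7, an ERK phosphatase below the filter that is named after its values were seen, lay on the other side, with 3, 1, 0 and 0 UMIs in WT 1 to 4 against 4, 8, 8 and 8 in A17/+ 1 to 4. In the edgeR fit without a filter its log2 difference was 2.38 ± 0.74 (SE; adjusted p = 0.0323).

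Of 29 adaptors and kinases downstream of the receptor, 22 were tested and 0 passed by edgeR (2 with an unadjusted p under 0.05), with a median of 0.02. Gab1, a docking protein of the receptor, had 83.9 ± 31.6 CPM in WT and 51.3 ± 9.03 CPM in A17/+ (−0.65, adjusted p = 0.161), and Map2k2, the kinase MEK2, had 38.4 ± 5.80 and 63.1 ± 25.2 CPM (0.71, adjusted p = 0.170). Over all tested genes, 1273 of 5066 had an unadjusted p under 0.05. DESeq2 and limma-voom also called 0 genes of these 3 lists.

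Genes that ERK signalling induces were next. Of 20 listed, 6 were tested and 0 passed by edgeR (2 with an unadjusted p under 0.05), with a median of −0.45 beside 0.01 for all tested genes. Ier5, an immediate early gene, had 26.7, 103, 105 and 163 CPM in WT 1 to 4, against 15.6, 45.2, 25.4 and 39.9 CPM in A17/+ 1 to 4, so that WT 1 alone lay among the A17/+ values. Its log2 difference was −1.58 ± 0.48 (SE), with an adjusted p of 0.0588. It lay past the threshold in 10 of 19 alternative settings, DESeq2 and the fit without WT 1 among them. Jun, a subunit of the AP-1 factor, had 93.8 ± 17.6 CPM in WT and 52.0 ± 19.8 CPM in A17/+ without overlap (−0.84, adjusted p = 0.0733), and passed in 4 of the 19 settings.

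Epgn lies in a cluster of EGF receptor ligands on chromosome 5, in which the nearest ends of Ereg, Areg and Btc lie 39407, 104384 and 322046 bases after it, the last on the minus strand. Of 24 annotated genes within 500000 bases of Epgn, 9 were in the table, and only Mthfd2l, a mitochondrial folate enzyme whose gene ends 6096 bases before Epgn, had enough counts to be tested. Mthfd2l had 12, 25, 25 and 10 UMIs in WT 1 to 4, against 17, 11, 13 and 9 in A17/+ 1 to 4. Its levels were 61.6 ± 26.9 and 32.8 ± 5.64 CPM (log2 difference −0.86 ± 0.35, SE; edgeR adjusted p = 0.140). Chemokine genes lie on the same side of Epgn. Of these, Pf4, platelet factor 4, had 4 UMIs in WT and 25 in A17/+ (adjusted p without a filter 0.0779 by edgeR), whereas Cxcl1 and Cxcl3 had 0 in WT and 1 in A17/+ each, and Cxcl2 had 3 and 7. Rassf6, a RAS association domain gene, had 9 and 4.

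The tested genes whose levels ran most like Epgn over the 8 libraries, by Pearson r of log2 CPM, were Pcdh7 (0.99), Abca12 (0.99), Lef1 (0.98), Sbsn (0.98) and Klf3 (0.97). Pcdh7 is a protocadherin, Abca12 the lipid transporter of keratinocytes, Lef1 a factor of the Wnt pathway, Sbsn the epithelial protein suprabasin and Klf3 a transcriptional repressor. Each was highest in WT 2 and had its 4 A17/+ values below its 4 WT values. Abca12, for example, had 290, 501, 376 and 298 CPM in WT 1 to 4, against 132, 155, 175 and 168 CPM in A17/+ 1 to 4. The 8 points share the genotype difference, the depth and the scaling of the libraries, and the genes were picked for the highest r among 5066, so that r is a description.

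**Figure D4:**
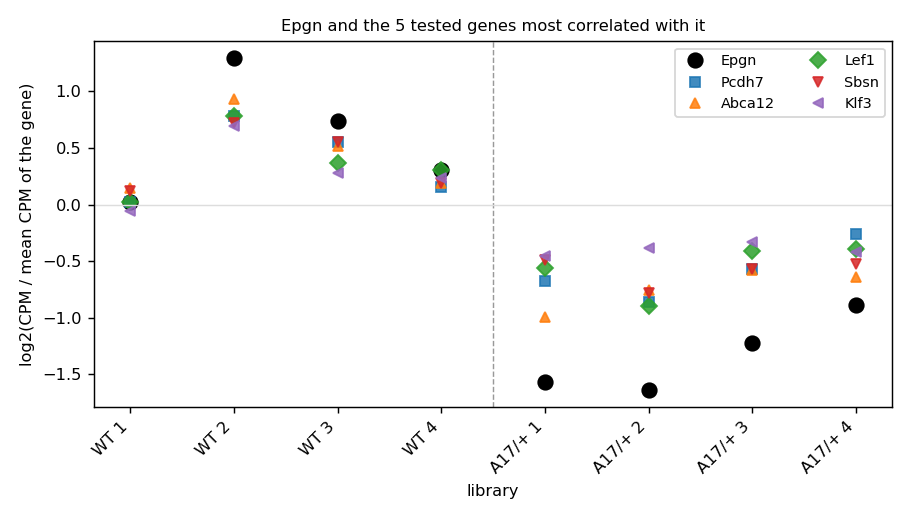
Level of Epgn and of the 5 tested genes most correlated with it, as log2 of CPM over the mean CPM of each gene (vertical axis), in each of the 8 libraries (horizontal axis). All 6 genes are highest in WT 2 and lower in every A17/+ library than in every WT library, and Epgn has the widest range.

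Egfr followed other genes. The tested genes with the highest r to Egfr were Hif1a (0.95), the oxygen-regulated transcription factor, Ablim3 (0.91), an actin-binding protein, Zzz3 (0.91), a chromatin protein, Yes1 (0.90), a SRC family kinase, and Abraxas2 (0.90), a deubiquitinase scaffold. Each of these had overlapping groups, as Egfr did. Among the listed genes themselves, Epgn ran closest to Erbb2 (r = 0.76 over the 8 libraries) and had r = 0.10 with Egfr.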

How the data were processed

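Tongue RNA of 4 WT and 4 A17/+ mice was sequenced with mcSCRB-seq, which counts UMIs at 3′ ends. The submitters' processing notes name cutadapt 2.10, STAR 2.7.5a, UMI-tools 1.1.1, HTSeq and mm10; settings, strand and annotation release are not given in the sources used here. The authors deposited raw counts per Ensembl gene, which were analysed here, and log2 expression values per library, deposited by the authors for fewer genes and used in 1 alternative. Symbols and positions came from GENCODE M21 (19675 of 19857 identifiers matched; the other 182 kept theirs).

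Genes were kept by filterByExpr (minimum count 10, minimum total 15), scaled by TMM, and tested in edgeR 4.0.16 (R 4.3.3) by its quasi-likelihood test in the robust form, genotype being the only term, with Benjamini-Hochberg adjustment. Members below the filter were taken from the same fit on all 19857 genes. Standard errors are the log2 difference over the square root of the test statistic. The fit was also run on simulated data, but the outcome is not reported here and no result rests on it. The members and gene lists were chosen with earlier results of these data known. Named genes were the members, the 2 smallest p of each list without a call, the neighbours of Epgn, and 5 genes most correlated with Epgn and with Egfr. Equal replicate numbers were not treated as pairs. Replicate libraries all differed by more than sampling noise (chi-square per degree of freedom 1.41 to 8.17). The labels give no batch. Alternatives were RLE, upper quartile and library-total scaling, 2 other filters, DESeq2 1.42.0, limma 3.58.1 (voom, and trend on the deposited log2 values), a replicate block, an epithelium covariate, and leaving out each library, or both numbered 1 (chosen after seeing the data).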

Additional observations from a re-analysis of the deposited data

Results flagged for a closer look

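Of 54 groups of 4 libraries examined, 3 had a library far from the other 3; chance alone gives about 5% of groups. Ereg stood at 93.7 CPM (29 UMIs) in WT 2, against 5.42 to 13.4 CPM in the other WT libraries. Erbb4 stood at 35.7 CPM (16 UMIs) in WT 1, against 9.70 to 10.8 CPM. The summed lingual salivary gland markers stood at 2075 CPM in WT 1, against 5.42 to 19.4 CPM. None of these genes passed the filter on low counts.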

How the results depend on the processing

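The log2 difference of Epgn was below 0 in all 18 alternative settings that gave a value. These settings reuse the libraries on which Epgn was chosen, so the shared sign is no support. The difference of Epgn lay between −2.18 and −1.68 when each library was left out in turn, and at −1.55 with limma-trend on the deposited log2 values (the cause was not tested). DESeq2 gave it no adjusted p, and a mean count of 10 or more left it out. The members past the threshold numbered 0 to 1 with libraries left out, 0 being without WT 2; as Epgn chose the list, this is no support. The 453 genes past the threshold became 853 without a filter, 233 with limma-voom, 808 with limma-trend, 1025 without both libraries numbered 1, and 210 to 890 with 1 library left out. Listed genes induced by ERK signalling passed as follows, against 0: 1 with upper quartile scaling, without a filter, with DESeq2, with the epithelium covariate and without both libraries numbered 1, and 2 with library totals and limma-trend. Leaving out 1 library gave 0 to 2. For negative regulators 1 (Dusp7) passed without a filter and with limma-trend, and for downstream kinases 1 with the covariate and 2 without both libraries numbered 1. With 1 library left out, 0 to 1 gene passed for the downstream kinases, the ligand release genes and the other ligands and receptors. With library totals the median of all genes moved by −0.12.

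The labels do not say whether equal replicate numbers belong together. Deviations from the group means correlated at 0.00, 0.07, −0.10 and −0.16 for numbers 1 to 4, yet WT 1 and A17/+ 1 correlated most with each other. These values cannot decide whether the samples were paired. With the replicate block the log2 difference of Epgn was −1.91, and 1 gene of the ERK list, Ier5, passed. Depth limits Areg, Hbegf and Errfi1, whose counts per library were at most 9.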
